A study of Mus musculus with 7 samples.

Results

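The proteasome genes described here are the 47 of 15815 genes in the expression table whose symbols begin with Psm, a letter from a to g and a number, with Psmb8 and Psmb9 left out. Of these, 46 encode proteasome subunits, activators, an inhibitor or assembly factors. The other, Psmc3ip, is named for a cap subunit that its product binds, but encodes a recombination factor, and it was kept apart. The 46 genes fall into 7 alpha and 9 beta subunits of the core, 6 ATPases and 11 non-ATPases of the cap, 6 activators and inhibitors, and 7 assembly factors. The 7 RNA-seq libraries came from regulatory T (Treg) cells, the Foxp3-dependent CD4 T cells that restrain immune responses. Rag-/- hosts, which make no T or B cells of their own, were given naive T cells and unmarked Treg cells, all WT, and a YFP+ Treg population that was WT in 4 libraries (WT 1 to 4) and Hpgd-deficient in 3 (KO 1 to 3). Sorting for YFP took place 8 weeks after the transfer, from the mesenteric lymph nodes (mLN). The strain is labelled C57BL/6JRcc in both groups, and the line entry, which names a floxed Hpgd and Foxp3-YFP-Cre, is the same for all 7 samples, so WT and KO rest on the titles. The Cre is active in Foxp3-expressing cells, and the host's age was not used here. Whether every library stands for another host is not in the labels, so the p-values refer to the spread of these samples, which may be technical. In bulk samples, a smaller number of cells of a type and less RNA per cell cannot be told apart.

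The proteasome is the large protease that degrades proteins tagged with ubiquitin. Its barrel-shaped core is built from stacked rings: outer rings of alpha subunits gate the entrance, and inner rings of beta subunits hold the catalytic sites. A regulatory cap binds ubiquitin chains, removes them, and uses ATPases to unfold the substrate and thread it into the core. Interferon gamma can induce alternative catalytic subunits, among them Psmb10, and the activator ring of Psme1 and Psme2, which change the peptides made for presentation on MHC class I. Dedicated chaperones put the rings together, and the transcription factor Nfe2l1 raises the whole set of subunits when proteasome activity falls.

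Hpgd, which encodes the enzyme that breaks down prostaglandin E2, checks the labels. Levels here are normalized counts, the deposited values less their offset of 1, which the authors scaled between libraries, and fold changes are KO against WT. Its normalized counts were 18.7, 9.96, 10.2 and 13.4 (WT 1 to 4) against 0.759, 2.42 and 5.52 (KO 1 to 3), so the groups did not overlap. Means were 13.0 ± 4.08 (SD, n = 4) and 2.90 ± 2.41 (SD, n = 3), and 35 splits of 7 libraries allow no smaller p than the 0.0286 of the exact two-sided permutation test. In a limma fit of all 15815 genes, Hpgd had a log2 fold change of -2.01 (SE 0.79) and an adjusted p of 0.9998. Few reads stand behind these values: 0.759 in KO 1 is the worth of 1 read. Reads behind the table ranged from 4135733 in KO 3 to 10622507 in WT 4. The summed normalized count of 6 Treg markers was between 21874.5 and 29590 in WT and between 26672.5 and 28787 in KO. Foxp3 itself had 107, 56.1, 161 and 103 (WT 1 to 4) against 123, 107 and 142 (KO 1 to 3). Markers of other cells were found too: the summed counts in WT and KO ranged over 320.1 to 751 and 327 to 433 for B cells (3 of 4 markers listed, nearly all of it Cd79b), 178 to 1401 and 620.4 to 1556 for myeloid cells (5 of 5), 92.7 to 175 and 62.5 to 150.3 for CD8 T and NK cells (4 of 4), and 539 to 888 and 568 to 728 for stroma, endothelium and epithelium (3 of 5). Erythroid markers (4 of 5 listed) ranged from 491 to 2033 in WT and from 62.2 to 199 in KO, without overlap. Most of this sum was Hba-a2 (339 to 1563 in WT, 50.8 to 156 in KO). The groups did not overlap in 3 of these markers, Hba-a1, Hba-a2 and Hbb-bt, beside 3.65% of all genes tested. In Alas2 they overlapped, at low values (3.62 to 19.0 in WT, 2.28 to 9.69 in KO). Of the B cell markers, Cd79a (2.11 to 12.9) and Ms4a1 (4.85 to 8.80) were near 0 in every library. The other sums were uneven too. Of the myeloid markers, Lyz2 ranged from 47.5 to 1274, Csf1r from 33.1 to 249.9 and Cd68 from 37.3 to 93.2. Itgam had only 7.24 to 37.3 and Itgax 0 to 24.6. Of the CD8 T and NK cell markers, Cd8b1 ranged from 25.7 to 126. Cd8a had only 0 to 16.5, Ncr1 0 to 23.1 and Klrb1c 3.39 to 35.8. No marker that was found stood at 0 in every library, and the part of these cells in the proteasome values was not tested.

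All 47 genes passed the filter of a mean normalized count of at least 10, and none passed the test between Hpgd-deficient and WT Treg cells. With limma on log2(normalized count + 1), 0 of 47 had an adjusted p below 0.05, and 0 of all 11787 genes tested (0%) did. At an unadjusted p below 0.05 the count was again 0 of 47, beside 211 of 11787 genes (1.79%), and voom on the recovered reads also gave 0 of 47, beside 193 (1.64%). The smallest unadjusted limma p among the 47 was 0.174, for the nuclear activator Psme3, and the limma adjusted p was 1.00 for each of them after rounding; permutation p-values of single genes given below are not adjusted. No member had WT and KO libraries that did not overlap, against 430 of 11787 genes (3.65%). Estimates were lower in KO for 26 of 47 (55.3%) and higher for 21, beside 48.2% lower among all genes tested, with a median log2 fold change of -0.02. For 44 of the 46 proteasome genes the 95% interval of the fold change lay within 2-fold in either direction, beside 56.4% of all genes tested and 92.3% of the 3320 tested genes with a mean of at least 500. The exceptions were Psmb11 and Psme2b. Estimates of the 46 genes ran from -0.28 for the assembly factor Psmg4 to 0.32 for Psme3.

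**Figure D1:**
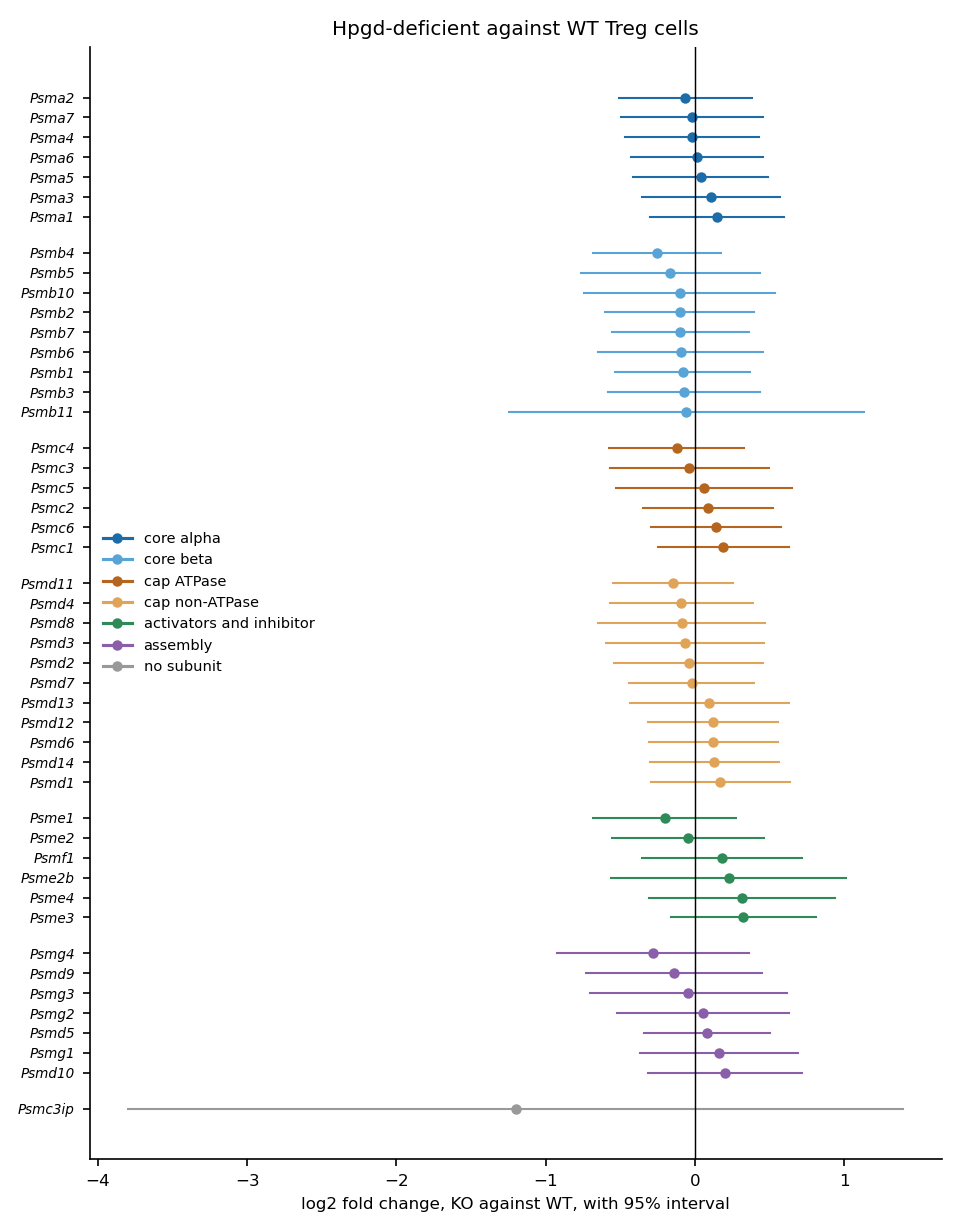
Log2 fold change of each of the 47 genes in KO (n = 3 libraries) against WT (n = 4), from limma on log2(normalized count + 1), with the estimate as a point and its 95% interval as a line, coloured by class. Every interval crosses 0, and the intervals of Psmb11, Psme2b and Psmc3ip are the only ones to reach beyond 1 in either direction.

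The 47 genes, with Psmc3ip included, together took 0.818%, 0.931%, 0.664% and 0.761% of all normalized counts (WT 1 to 4) against 0.781%, 0.778% and 0.774% (KO 1 to 3). The share was 0.794% ± 0.112 (WT, SD, n = 4) against 0.778% ± 0.00390 (KO, SD, n = 3), with all KO libraries inside the WT range and a difference smaller than the WT SD. WT 2 was the highest library for 29 of 47 genes (61.7%) and WT 3 the lowest for 28 (59.6%). Among all genes tested, WT 2 was highest for 29.2% and WT 3 lowest for 19.2%, and among tested genes with a mean of at least 500 for 39.8% and 28.8%. For 27 of 47 genes (57.4%) all 3 KO libraries lay between the lowest and the highest WT library, which held for 38.8% of all genes tested and 43.3% of those with a mean of at least 500. The median coefficient of variation over 7 libraries was 18.8% for the 47 genes and 27.8% for all genes tested, and 19.5% for those with a mean of at least 500. The steadiest members were the cap subunits Psmd7 (10.8%) and Psmd11 (11.8%) and the assembly factor Psmd5 (12.0%).

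The direction of the small group differences depended on single libraries. Without WT 2, 9 of 47 estimates were lower in KO in place of 26, beside 49.3% of all genes tested, and the median log2 fold change was 0.11. Without WT 3, 30 of 47 were lower and the median was -0.09. Leaving out both WT 2 and KO 3 gave 10 lower estimates, and 1 gene, Psme3, with an unadjusted limma p of 0.0490 beside 3.39% of all genes tested, but none past the adjusted threshold. With array weights, which give each library a weight by its fit, 20 of 47 were lower. The share of lower estimates among all genes tested is not given here for array weights, without WT 3, or without both WT 2 and KO 3. Whether those counts are particular to the proteasome genes was therefore not tested. As each library was left out in turn, the median log2 fold change crossed 0 in 5 of the 6 classes: it ran from -0.09 to 0.13 for alpha subunits, -0.29 to 0.07 for beta subunits, -0.09 to 0.16 for cap ATPases, -0.09 to 0.11 for cap non-ATPases and -0.0026 to 0.12 for assembly factors. For activators and the inhibitor it ran from 0.08 to 0.25.

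**Figure D2:**
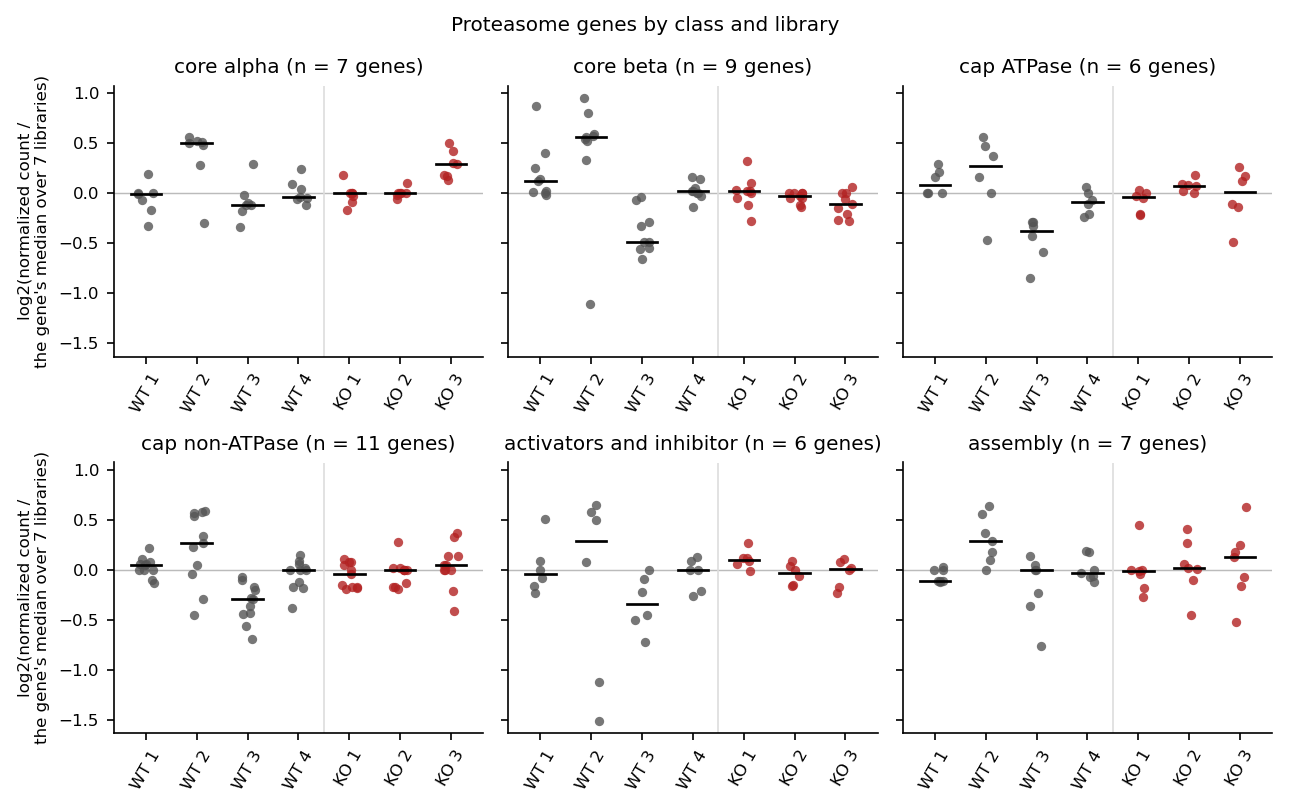
Log2 of each gene's normalized count over its own median across the 7 libraries, by class, with 1 point per gene, WT libraries in grey, KO libraries in red, and a bar at the median of the class. WT 2 stands above 0 and WT 3 at or below 0 in the medians of all 6 classes, while the KO medians lie between -0.11 and 0.29.

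Compared per kilobase of transcript, the genes for the core ranked above those for the cap, and assembly factors ranked lowest. The median normalized count per kilobase was 1255 for alpha and 1176 for beta subunits, 811 for activators and the inhibitor, 729 for cap ATPases, 490.3 for cap non-ATPases and 217 for assembly factors. Of the 46 genes, 45 lay above the median of all 11034 tested genes with a known length (76.1 per kilobase), and 27 (58.7%) above their 90th percentile (534 per kilobase). The exception below the median was Psmb11, at 7.99 per kilobase. Classes overlapped widely: the alpha and beta medians differed by less than the range within either class, from 889.7 for Psma3 to 2658 for Psma7 and from 7.99 to 2921 for Psmb3. With coding length in place of transcript length the order of the 6 classes was the same, but ranks within classes changed. Per kilobase of coding length Psma2 (4149) and Psma3 (3310) stood above Psma7 (3266), and Psmb1 (3748) above Psmb3 (3638). Among assembly factors Psmg2 (290.0) then stood below Psmd9 (302).

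**Figure D3:**
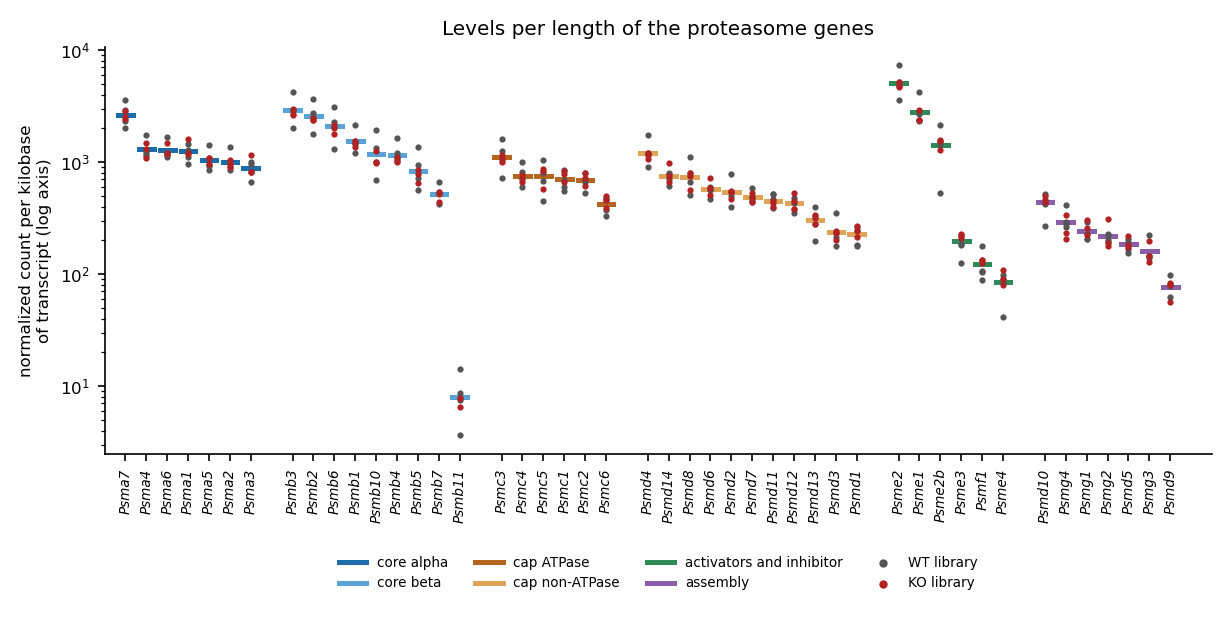
Normalized count per kilobase of transcript (log axis) for the 46 proteasome genes, grouped by class and ordered by mean, with grey points for the 4 WT libraries, red points for the 3 KO libraries and a bar at the mean of all 7. Psme2 stands highest at 5095 and Psmb11 lowest at 7.99 per kilobase, and the ranges of the red and grey points overlap for every gene.

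The alpha subunits, which form the gated outer rings, had mean levels from 889.7 to 2658 per kilobase and coefficients of variation of 16.3% to 19.2%. Estimates were higher in KO for 4 of 7 and lower for 3, with a median log2 fold change of 0.01. Psma7 (chr2:180036374-180042433, mm10), the most abundant of them per kilobase of transcript, had normalized counts of 2644, 3272, 1825 and 2124 (WT 1 to 4) against 2312, 2215 and 2615 (KO 1 to 3). WT 2 was highest and WT 3 lowest, with the KO libraries between them. Its mean was 2466 ± 635 (WT, SD, n = 4) against 2381 ± 209 (KO, SD, n = 3), and the log2 fold change was -0.02 (SE 0.22, 95% interval -0.49 to 0.45). Psma1 (chr7:114264606-114276118), which had the smallest p of the class, had 1149.5, 1751, 1328 and 1537 (WT 1 to 4) against 1438, 1420.2 and 1929 (KO 1 to 3). Here KO 3 was highest and WT 1 lowest, and the groups overlapped. The log2 fold change was 0.15 (SE 0.21) with an exact permutation p of 0.429, and without KO 3 it was 0.0055. Psma3 differed from the rest of the class in its libraries: WT 2 was its lowest, with 2318, 1888, 2841 and 2747 (WT 1 to 4) against 2322, 2320.2 and 3288 (KO 1 to 3).

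The beta subunits were the only class whose estimates all pointed one way: 9 of 9 were lower in KO (median -0.10 in log2), and none passed the test. For 8 of the 9 the KO libraries lay inside the WT range, and WT 2 was highest for 8. Without WT 2, 2 of 9 were lower and the median was 0.07, while without WT 3 all 9 were lower with a median of -0.29. Psmb4 (chr3:94884093-94886961), a structural subunit of the inner ring, had the smallest p of the class. Its normalized counts were 1420.1, 1939, 1272 and 1326 (WT 1 to 4) against 1308, 1205 and 1179 (KO 1 to 3). WT 2 was highest, and KO 1 lay above WT 3, so the groups overlapped. The mean was 1489.5 ± 306 (WT, SD, n = 4) against 1231 ± 68.0 (KO, SD, n = 3), and the log2 fold change was -0.26 (SE 0.20, 95% interval -0.68 to 0.17, exact permutation p = 0.143). Psmb3 (chr11:97703399-97713500), another structural subunit and the most abundant beta gene per kilobase, had 2252, 3253, 1532 and 2237 (WT 1 to 4) against 2279, 2037 and 2072 (KO 1 to 3) and a log2 fold change of -0.07 (SE 0.24).

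The constitutive catalytic subunits are Psmb5, with the chymotrypsin-like activity, Psmb6, with the caspase-like activity, and Psmb7, with the trypsin-like activity. Psmb5 (chr14:54614119-54618022) had normalized counts of 843, 1235, 506 and 642 (WT 1 to 4) against 761, 707 and 585 (KO 1 to 3). Its highest and lowest libraries, WT 2 and WT 3, were both WT, and the log2 fold change was -0.16 (SE 0.28). Psmb6 (chr11:70525367-70527858) had 1828, 2499, 1053 and 1655 (WT 1 to 4) against 1698, 1601 and 1431 (KO 1 to 3), again with the KO libraries inside the WT range, and a log2 fold change of -0.09 (SE 0.26). Psmb7 (chr2:38588036-38644087), the lowest of the 3 per kilobase at 523, had 616, 777, 489.7 and 625 (WT 1 to 4) against 626, 604 and 511 (KO 1 to 3). Its log2 fold change was -0.10 (SE 0.21), and the groups overlapped.

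Psmb10 (chr8:105935735-105938444) takes the place of Psmb7 in the interferon-inducible form of the core. It had 1756, 2560.3, 904 and 1303 (WT 1 to 4) against 1654, 1287 and 1326 (KO 1 to 3), a range of 2.83-fold that lay wholly within WT, and a coefficient of variation of 34.2%. The log2 fold change was -0.10 (SE 0.29, 95% interval -0.74 to 0.54). Per kilobase, the ratio of Psmb10 to Psmb7 was 2.52, 2.92, 1.63 and 1.85 (WT 1 to 4) against 2.34, 1.88 and 2.29 (KO 1 to 3), so Psmb10 was the more abundant of the pair in every library. The ratio was 2.23 ± 0.595 (WT, SD, n = 4) against 2.17 ± 0.250 (KO, SD, n = 3), and the exact permutation p was 0.886 (0.971 adjusted over the 4 ratios tested). Psmb11 (chr14:54621433-54629556), the catalytic subunit known from cortical thymic epithelium, lies 3410 bases from Psmb5. It had 60.5, 15.4, 31.7 and 36.5 (WT 1 to 4) against 27.3, 33.1 and 33.1 (KO 1 to 3), from 247 reads in all 7 libraries together. WT 1 was highest and WT 2 lowest, the log2 fold change was -0.06 (SE 0.55), and its 95% interval of -1.25 to 1.13 does not limit the change to 2-fold.

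The cap ATPases, which form the ring that unfolds substrates, had higher estimates in KO for 4 of 6 and a median log2 fold change of 0.07. Without WT 3, 2 of 6 were higher and the median was -0.09. WT 3 was the lowest library for 5 of the 6. Psmc3 (chr2:91054009-91066369), the most abundant, had 2053, 2615, 1179.6 and 1695 (WT 1 to 4) against 1773, 1882 and 1649 (KO 1 to 3), with both extremes in WT and a log2 fold change of -0.04 (SE 0.25). Psmc1 (chr12:100110154-100123405) had 1353, 1102, 881 and 952 (WT 1 to 4) against 1065, 1247 and 1324 (KO 1 to 3). WT 1 and KO 3 were high and WT 3 low, and the log2 fold change was 0.19 (SE 0.20, exact permutation p = 0.343). Psmc5 (chr11:106256154-106263120), the most variable ATPase with a coefficient of variation of 26.3%, had 1058, 1367, 588 and 896 (WT 1 to 4) against 1086, 1130.2 and 754 (KO 1 to 3). WT 3 and KO 3 were its lowest libraries, and the log2 fold change was 0.06 (SE 0.27). Psmc6 had its lowest value in WT 2, with 1018, 737, 835 and 1064 (WT 1 to 4) against 876, 1022 and 1107 (KO 1 to 3).

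The non-ATPase subunits of the cap bind ubiquitin chains, remove them or hold the cap together. Estimates were higher in KO for 5 of 11 and lower for 6, with a median log2 fold change of -0.02. Psmd4 (chr3:95032694-95042614), a ubiquitin receptor and the most abundant of the class, had 1597, 2302, 1208 and 1548 (WT 1 to 4) against 1550.4, 1411 and 1607 (KO 1 to 3), highest in WT 2 and lowest in WT 3. Its log2 fold change was -0.09 (SE 0.22). Psmd11 (chr11:80428615-80473248), a lid subunit that contacts the core, had 1474, 1483, 1106 and 1323 (WT 1 to 4) against 1229, 1123 and 1269 (KO 1 to 3). WT 1 and WT 2 were highest and WT 3 and KO 2 lowest, and the log2 fold change was -0.15 (SE 0.19, exact permutation p = 0.229). Psmd8 (chr7:29174188-29180701), a lid subunit with the widest spread of the class, had 1221, 1726, 783 and 1023 (WT 1 to 4) against 1226, 1158 and 868 (KO 1 to 3) and a log2 fold change of -0.09 (SE 0.26). The large scaffold subunit Psmd1, the least abundant of the class per kilobase (227), had its lowest value in WT 2, with 817, 551, 561 and 767 (WT 1 to 4) against 666, 756 and 829 (KO 1 to 3). The lid subunit Psmd12 was also lowest there, with 827, 674, 733 and 918 (WT 1 to 4) against 722, 999 and 857 (KO 1 to 3).

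The activators ranged from 84.5 per kilobase for Psme4 to 5095 for Psme2, and 4 of the 6 genes had higher KO estimates (class median 0.20 in log2). Without WT 2 the class median was 0.08, and with array weights it was 0.0095, with 3 genes higher and 3 lower. Psme1 and Psme2, which together form the interferon-inducible activator ring, lie 5911 bases apart on chromosome 14 and were the most abundant genes of the class. Psme1 (chr14:55578123-55581529) had 3180.2, 4678, 2567 and 2991 (WT 1 to 4) against 3235, 2669 and 2659 (KO 1 to 3), with a log2 fold change of -0.20 (SE 0.22). Psme2 (chr14:55587441-55591113) had 4699, 7013, 3422 and 4997 (WT 1 to 4) against 4644, 4488 and 5046 (KO 1 to 3), with a log2 fold change of -0.05 (SE 0.24). Both were highest in WT 2, and the KO libraries of both lay inside the WT range. Per kilobase the ratio of Psme2 to Psme1 was 1.71, 1.73, 1.54 and 1.93 (WT 1 to 4) against 1.66, 1.94 and 2.19 (KO 1 to 3). The ratio was 1.73 ± 0.160 (WT, SD, n = 4) against 1.93 ± 0.267 (KO, SD, n = 3), with an exact permutation p of 0.257 (0.971 adjusted over 4 ratios).

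Psme2b (chr11:48945354-48946190) is a near-copy of Psme2: 76.5% of the 31-base words of its transcript also occur in Psme2, so reads may be split between the pair and both values are uncertain. It had 1789.7, 443, 1186 and 1261 (WT 1 to 4) against 1308, 1296 and 1074 (KO 1 to 3). WT 2, the highest library for Psme2, was the lowest for Psme2b, at 5.94% of the sum of both genes against 17.5% to 27.6% in the other 6 libraries. Added together, the pair had 6489, 7455, 4609 and 6258 (WT 1 to 4) against 5953, 5784 and 6119.7 (KO 1 to 3). The share of Psme2b was 19.9% ± 9.80 (WT, SD, n = 4) against 20.6% ± 2.69 (KO, SD, n = 3), with an exact permutation p of 0.914 (0.971 adjusted over 4 ratios). The log2 fold change of Psme2b was 0.23 (SE 0.36, 95% interval -0.56 to 1.01). The same limit holds for Psmb5, Psmb3, Psma5, Psma4, Psmd2, Psmc1 and Psmb7, for which 74.0%, 66.8%, 66.5%, 46.4%, 45.3%, 39.7% and 33.5% of words occur in transcripts of other genes, and for Psme2 itself (66.2%). In Psmd11, Psmc3ip, Psma3, Psmg3, Psme1, Psmd13 and Psmb6 the share was between 15.4% and 28.4%, and in the other 31 of the 47 genes it was below 10%. Psmb11 is among these 31, but its shared words (7.09%) occur in transcripts of 2679 other genes. Whether its 247 reads came from them was not tested.

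**Figure D4:**
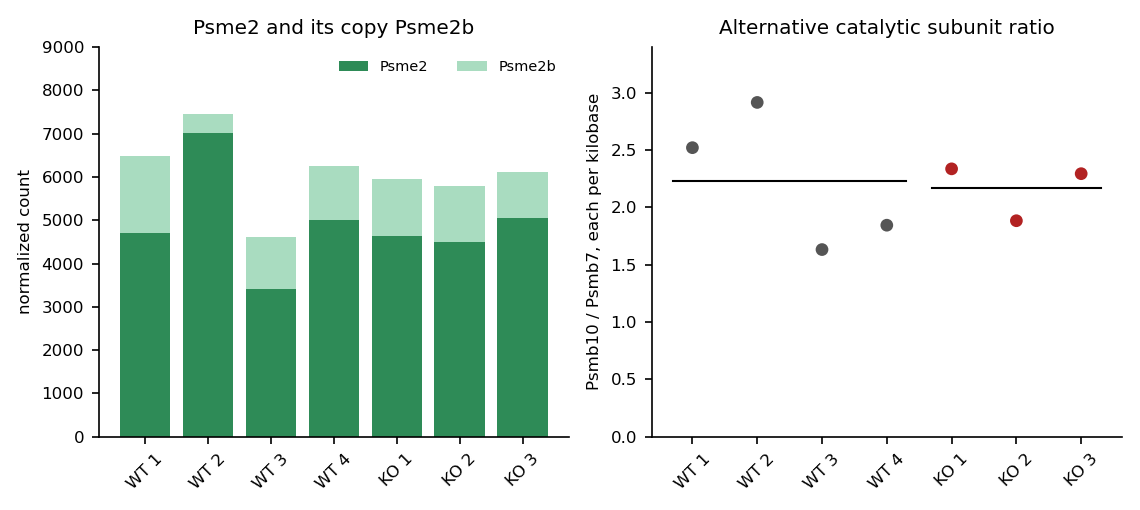
Left, stacked bars of the normalized counts of Psme2 (dark) and Psme2b (light) in each library, starting at 0. Right, the ratio of Psmb10 to Psmb7, each per kilobase, with grey points for WT, red points for KO and lines at the group means of 2.23 and 2.17. Psme2b takes 5.94% of the pair in WT 2 and 17.5% or more elsewhere, and the KO ratios fall inside the WT range.

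The nuclear activator Psme3 and the single-chain activator Psme4 had the highest estimates of all 47 genes. Psme3 (chr11:101316213-101323537) had 499, 588, 337 and 481 (WT 1 to 4) against 605, 594 and 557 (KO 1 to 3). All 3 KO libraries lay above WT 1, WT 3 and WT 4, and KO 1 and KO 2 but not KO 3 lay above WT 2. The mean was 476 ± 104 (WT, SD, n = 4) against 585 ± 24.9 (KO, SD, n = 3), and the log2 fold change was 0.32 (SE 0.23, 95% interval -0.16 to 0.81), with an exact permutation p of 0.114 and a limma adjusted p of 1.00. Without WT 2 the log2 fold change of Psme3 was 0.43 (SE 0.20), at an unadjusted limma p of 0.0517, and without WT 3 it was 0.17. Psme4 (chr11:30771726-30880361) had 548, 267, 581 and 633 (WT 1 to 4) against 701, 522 and 588 (KO 1 to 3). WT 2 was far below the other libraries and KO 1 highest, and the log2 fold change was 0.31 (SE 0.29, exact permutation p = 0.571). Without WT 2 it was 0.03. The ratio of Psme3 to Psme4 per kilobase was 2.22, 5.36, 1.41 and 1.85 (WT 1 to 4) against 2.10, 2.77 and 2.31 (KO 1 to 3), with WT 2 highest and an exact permutation p of 0.971 (0.971 adjusted over 4 ratios).

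The assembly factors, chaperones that join subunits into rings and then leave, were the least abundant class, from 77.3 per kilobase for Psmd9 to 438 for Psmd10. Estimates were higher in KO for 4 of 7, with a median log2 fold change of 0.05. Psmd10 (chrX:140948429-140956728), a cap chaperone also known as gankyrin, had 603, 652, 383 and 744 (WT 1 to 4) against 633, 656 and 713 (KO 1 to 3). WT 3 was low and the other libraries close together. The log2 fold change was 0.20 (SE 0.24), and 0.0066 without WT 3. Psmg4 (chr13:34162964-34178173), a chaperone of the alpha ring, had 145, 231, 162 and 157 (WT 1 to 4) against 129.8, 115 and 186 (KO 1 to 3). WT 2 was highest and KO 2 lowest, and KO 3 lay above WT 1, WT 3 and WT 4. The log2 fold change was -0.28 (SE 0.30, 95% interval -0.92 to 0.36, exact permutation p = 0.343). In 1 of the 7 assembly factors all KO libraries lay inside the WT range, and WT 3 was lowest for 2 of 7. Psmc3ip (chr11:101091823-101095436), the recombination factor that the symbols bring in, had 72.6, 26.3, 5.65 and 19.7 (WT 1 to 4) against 25.0, 37.2 and 0 (KO 1 to 3), from 0 reads in KO 3 to 66 in WT 1. The log2 fold change was -1.20 (SE 1.20, 95% interval -3.80 to 1.40).

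Transcript length moved with the WT 2 values. In the 23 proteasome genes with transcripts of at most 1435 bases, the median log2 of WT 2 over the median of the other 6 libraries was 0.57, and 21 of 23 were above 0. In the 23 longer ones it was 0.25, and 16 of 23 were above 0. Among all tested genes with a known length the medians were 0.49 (1178 of 1475 above 0) and -0.02 (4657 of 9559). WT 3 ran the other way, but without that split among the proteasome genes: medians were -0.29 in the shorter and -0.31 in the longer ones, against -0.24 and 0.01 among all genes. Ribosomal protein genes, which are short, took 7.79% of normalized counts in WT 2 and 4.51% to 5.68% in the other libraries. With ribosomal protein and mitochondrial genes left out of the total, the share of the 47 genes was 0.873% ± 0.126 (WT, SD, n = 4) against 0.850% ± 0.00456 (KO, SD, n = 3). The part of transcript length in the WT 2 values was not tested. The 7 genes that were lowest in WT 2 were Psme2b, Psme4, Psmb11, Psmc6, Psmd1, Psma3 and Psmd12, with log2 ratios to the median of the other 6 of -1.53, -1.13, -1.11, -0.47, -0.47, -0.43 and -0.32. The genes furthest above it were Psmb10 at 0.96, Psmb5 at 0.87 and Psme1 at 0.72.

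**Figure D5:**
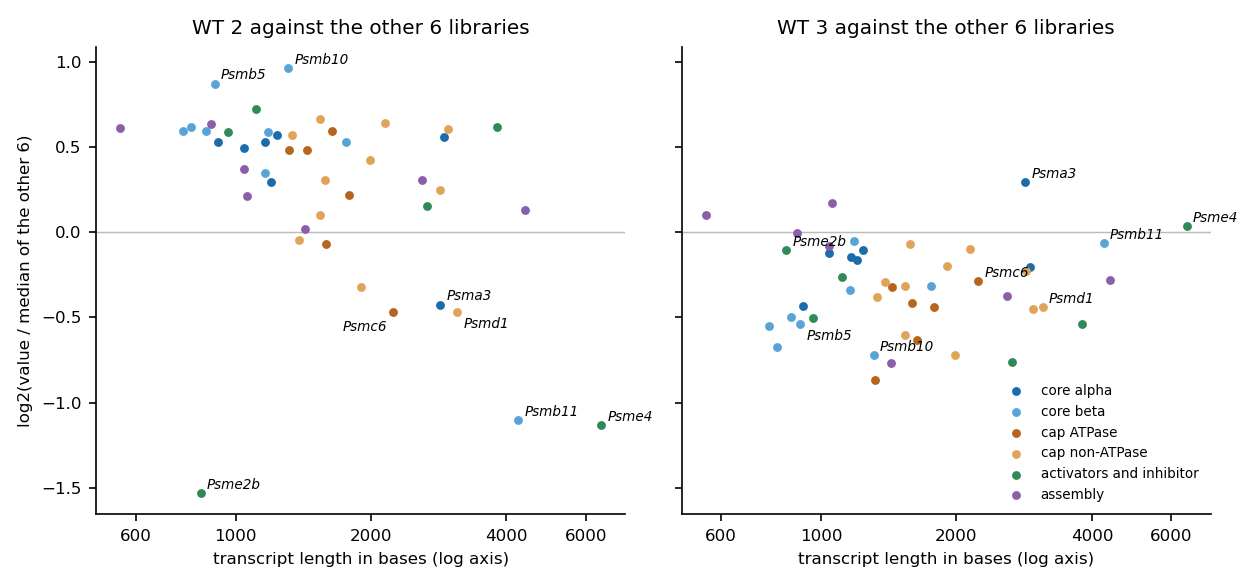
Log2 of the normalized count in WT 2 (left) and WT 3 (right) over the median of the other 6 libraries, against transcript length in bases (log axis), with 1 point for each of 46 proteasome genes, coloured by class. In WT 2 shorter transcripts lie mostly above 0 and Psme4, Psmb11 and Psme2b lie below -1, while WT 3 lies mostly below 0 at all lengths.

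The genes are spread over 16 chromosomes, and promoter sequences from RefSeq (GRCm38.p6, 250 bases before to 50 after each start) were matched for 40 of the 47, as 43 promoters. No entry was matched for Psmb1, Psmb2, Psmb7, Psmc3, Psmd3, Psmd7 and Psmg2. Each motif was searched on both strands. The motif of ETS-family factors, CCGGAAG, was found in 16 of 43 (37.2%) beside 8.86% of all 32851 promoters, and the GC box GGGCGG in 23 of 43 (53.5%) beside 35.7%. CCAAT was found in 14 of 43 (32.6%) beside 37.4%, and TGACNNNGC, a form of the antioxidant response element bound by Nfe2l1 and its relatives, in 6 of 43 (14.0%) beside 12.4%. Matches of different motifs can lie side by side or overlap, and each motif was counted separately. A match is a description of letters only. The 6 members with TGACNNNGC are shown because the class of factors that bind it is known to drive proteasome genes; capitals mark the motif or its reverse complement in 30 bases along the strand of the gene, 5′ to 3′.
Psmb5: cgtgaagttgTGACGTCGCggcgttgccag
Psmb6: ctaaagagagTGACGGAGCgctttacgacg
Psmc6: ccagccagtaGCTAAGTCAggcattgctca
Psmd12: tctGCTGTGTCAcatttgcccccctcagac
Psmd9: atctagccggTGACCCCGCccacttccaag
Psme4: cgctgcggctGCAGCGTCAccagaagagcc
These windows lie at chr14:54618023-54618052 (minus strand) for Psmb5, chr11:70525338-70525367 (plus strand) for Psmb6, chr14:45329587-45329616 (plus strand) for Psmc6, chr11:107479278-107479307 (plus strand) for Psmd12, chr5:123228149-123228178 (plus strand) for Psmd9 and chr11:30771758-30771787 (plus strand) for Psme4. The motif begins 47, 9, 227, 247, 31 and 7 bases before the RefSeq start, in that order. The 6 log2 fold changes in KO were -0.16, -0.09, 0.14, 0.12, -0.14 and 0.31, of both signs.

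CCGGAAG was the motif with the widest gap between these promoters and all promoters, whatever the level of their genes. Promoters of genes at similar levels were not compared. CCGGAAG was found in 15 members, with Psmc3ip counted, of which Psmc6, Psmd12 and Psme4 also hold TGACNNNGC. No promoter of a beta subunit that was matched held CCGGAAG. Windows of 4 of the named members are shown, with the motif or its reverse complement in capitals.
Psmc1: tggtggatgcaCTTCCGGcggtggcgattt
Psmd4: ttacagctgttCCGGAAGctgctgcgaagg
Psmd11: cgagggcgggtCTTCCGGgtgtgtgtttcc
Psme3: gggcacaaggcCCGGAAGctccgacagccc
They lie at chr12:100110163-100110192 (plus strand) for Psmc1, chr3:95042721-95042750 (minus strand) for Psmd4, chr11:80428593-80428622 (plus strand) for Psmd11 and chr11:101316095-101316124 (plus strand) for Psme3, and the motif begins 28, 125, 11 and 107 bases before the RefSeq start. Psme3 holds another match, not shown, that begins 3 bases after the RefSeq start. The log2 fold changes of the 4 genes were 0.19, -0.09, -0.15 and 0.32, also of both signs.

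Other genes of the pathway, among them ubiquitin genes, shuttle factors, deubiquitinases and the regulators of subunit transcription, were found for 31 of 32 names. Estimates were higher in KO for 17 and lower for 14, the median log2 fold change was 0.02, and 0 of 31 passed limma at an adjusted or unadjusted p below 0.05. Ubqln1, a shuttle factor that carries ubiquitinated proteins to the cap, had 633, 610.2, 650.3 and 585 (WT 1 to 4) against 689.8, 867 and 907 (KO 1 to 3). It had a log2 fold change of 0.40 (SE 0.19). Its groups did not overlap, as in 1 of the 31 genes, a share no larger than the 3.65% of all genes tested. Nfe2l1 had 388, 473, 291 and 268 (WT 1 to 4) against 392, 417 and 294 (KO 1 to 3), with the groups overlapping. Of 9 interferon gamma inducible genes, 4 were higher and 5 lower in KO by their estimates, their median was -0.02 (log2), and there was no limma p below 0.05 either adjusted or unadjusted, and no gene whose groups did not overlap.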

How the data were processed

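The deposited table gives for every gene a normalized signal in each library, made by the authors from SmartSeq2 reads (10 ng of RNA, NextSeq 500, per the labels' protocols). The submitters' processing notes name bcl2fastq2 2.20, CASAVA 1.8, kallisto 0.44, Partek 6.6, R 3.3.1, DESeq2 and mm10; their roles are not given in the sources used here. In all 7 libraries 100% of values minus 1 were whole multiples of 1 read (tolerance 0.01 read), worth 0.703 (WT 4) to 1.84 (KO 3). Normalized counts are deposited values minus 1. Reads carry no molecular identifiers or strand.

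Genes with a mean of at least 10 (11787) entered a limma 3.58.1 fit (R 4.3.3) of log2(normalized count + 1), using a trended prior and Benjamini-Hochberg adjustment over all of them at 0.05. No count model was run on the deposited values; voom on recovered reads called 0 genes at an adjusted p below 0.05. Lengths and positions come from the GENCODE M21 annotation of GRCm38, to which mm10 corresponds. No library pair agreed within sampling noise (smallest chi-square per degree of freedom 12.0). The code was tested on simulated data.

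Each library's value is given for the most abundant member per kilobase, the smallest p and the largest coefficient of variation of each class, the catalytic subunits and the activators; Psma3, Psmc6, Psmd1 and Psmd12 were added after their values were seen, and the other genes named come from counts. The rule also names the 2 smallest p among other pathway genes, of which 1 is not reported here. The members and lists were chosen with earlier results of these data known.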

Additional observations from a re-analysis of the deposited data

How the results depend on the processing

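Among the 47 proteasome genes, 0 passed an adjusted limma p of 0.05 under the settings run: other pseudocounts (1 added to the deposited value was chosen after seeing the data), filters, scalings, priors, array weights, voom, a replicate block, and each library left out. Over all genes 4 passed with array weights, 3 with the replicate block and 4 without both WT 2 and KO 3; that last setting gave 1 member at an unadjusted p below 0.05 and 10 lower estimates. EdgeR and DESeq2 fits were not run on the recovered reads, and voom was the only fit of them. Deviations from the group means correlated at 0.01, -0.04 and 0.09 between WT and KO libraries of the same number. Between those of different number they ran from -0.196 (WT 3 and KO 1) to 0.205 (WT 2 and KO 1). So few libraries cannot settle whether the replicate numbers pair them. Under the replicate block 27 of 47 estimates were lower. WT 4 has no KO library of the same number, so the block gives the same estimates as leaving out WT 4.

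Over these settings 438 single-gene estimates kept their sign while 43 did not. These counts cover the members picked by the naming rule above, not all 47 genes. The sign changed with array weights in Psmb5 (0.0097), Psmc3 (0.061), Psmd8 (0.094), and Psme2b (-0.040), and, without both WT 2 and KO 3, in Psma7 (0.059), Psmb10 (0.20), Psmb3 (0.12), Psmb5 (0.18), Psmb6 (0.16), Psmb7 (0.10), Psmc3 (0.19), Psmc3ip (0.54), Psmd4 (0.039), Psmd8 (0.26), Psme1 (0.018), Psme2 (0.081), and Psme2b (-0.093). For Psmb11 the log2 estimate was 0.0007 with voom and 0.0003 with the replicate block. Leaving out each library in turn moved the number of lower estimates between 9 and 30, and the log2 fold change between -0.15 and 0.13 for Psma7, -0.40 and 0.24 for Psmb11, -0.24 and 0.14 for Psmc3, -0.35 and 0.15 for Psmb10, -0.26 and 0.11 for Psmb3, -0.36 and 0.067 for Psmb5, -0.32 and 0.10 for Psmb6, -0.21 and 0.012 for Psmb7, -0.23 and 0.078 for Psmd4, -0.27 and 0.11 for Psmd8, -0.22 and 0.13 for Psme2, -0.19 and 0.49 for Psme2b, -0.16 and 0.25 for Psmc5, and -2.17 and 0.46 for Psmc3ip. The sign did not change for Psma1 (0.0055 to 0.25), Psmc1 (0.10 to 0.31), Psmd10 (0.0066 to 0.32), Psme3 (0.17 to 0.43), Psme4 (0.03 to 0.45), Psmb4 (-0.32 to -0.12), Psmd11 (-0.24 to -0.10), Psme1 (-0.32 to -0.03) and Psmg4 (-0.48 to -0.14). The cause was not tested.

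With coding length the medians per kilobase were 1949 (alpha), 1882 (beta), 861 (cap ATPases), 683 (cap non-ATPases), 1176 (activators and inhibitor) and 388 (assembly), and the ratios 2.49 for Psmb10 to Psmb7 in KO, 1.56 for Psme2 to Psme1 in WT, and 8.07 (WT) and 7.13 (KO) for Psme3 to Psme4. The KO share of counts without ribosomal protein and mitochondrial genes was 0.850%. KO 3 had the fewest reads, so genes of low count are least precise there.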
